A study of Mus musculus with 11 samples.

Results

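A set of 10 genes of glucose transport and glycolysis were followed through the differentiation of mouse im-scWAT preadipocytes: Slc2a1, Slc2a4, Hk1, Hk2, Pfkl, Pfkp, Aldoa, Pgk1, Ldha and Ldhb. They were picked by name, with no measured value in the rule, and all 10 were found among the 29955 gene symbols of the files. The value of a gene is the FPKM (mapped bases per kb of exon and per Mb of all mapped bases) of the sense strand of the transcript that the authors marked as its representative. FPKM is scaled to exon length, so levels can be set side by side between genes.

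The im-scWAT line comes from inguinal subcutaneous white fat of mice and was immortalized with SV40 large T antigen, so every sample carries that antigen. RNA-seq of 11 samples was used. Of these 6 were untransduced, at days 0, 4 and 8 of differentiation, either with 0.5 μM rosiglitazone (ROS, a ligand of the nuclear receptor PPARγ) from induction onward or without it, 1 sample for each combination of day and arm. The day 0 samples of both arms precede any treatment and serve as a pair of the same state. In the paper's methods, induction also used indomethacin, dexamethasone, isobutylmethylxanthine, insulin and thyroid hormone (T3), and insulin and T3 were kept afterwards. Later samples thus differ from day 0 by these additions as well as by time, and the 2 cannot be told apart. The labels describe a switch to medium without ROS for the last day before day 8, whereas the paper's account of ROS removal differs, so the cultures are called here only by their arm. The 5 transduced samples, all taken at day 8 in the ROS arm, carry a short hairpin RNA against mouse Jmjd1a from a U6 promoter and human JMJD1A from a retroviral LTR promoter, and were selected with G418 and then zeocin. JMJD1A removes methyl groups from histone H3K9. Of these 2 carry wild-type JMJD1A (WT A and WT B), 1 carries S265A, in which the serine phosphorylated by protein kinase A is lost, 1 carries S265D, in which an aspartate takes the place of the phosphorylated serine, and 1 carries S265D-H1120Y, in which the iron-binding histidine is lost as well. The labels do not state whether samples of a group came from separate cultures, so p-values measure only the spread between these samples, which may be technical.

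Glucose enters a fat cell through facilitative transporters. GLUT1 (Slc2a1) is the basal transporter of proliferating cells, and GLUT4 (Slc2a4) is the transporter that insulin brings to the surface of fat and muscle cells. Inside the cell hexokinase (Hk1, Hk2) traps glucose as glucose 6-phosphate, phosphofructokinase (Pfkl, Pfkp) sets the pace of the committed step, aldolase A (Aldoa) splits the hexose, phosphoglycerate kinase (Pgk1) yields ATP, and lactate dehydrogenase (Ldha, Ldhb) interconverts pyruvate and lactate. Fat cells use the pathway to make glycerol for triglyceride and acetyl units for fatty acids, and thermogenic fat burns glucose as a fuel beside fatty acids.

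Several of these genes are textbook targets of the hypoxia-inducible factors, which bind the letters ACGTG, so the promoter stretches that hold this motif are shown first. RefSeq promoter windows (GRCm38.p6 table, 250 bases before to 50 after a start) were given for 9 of the 10 genes, 13 windows in all, and each window was found at exactly 1 place in NCBIM37, the mm9 assembly, which gave the coordinates below. The stretches run 5′ to 3′ along the gene, with 10 bases on each side of a motif of 5 bases in capitals. CACGT is the same motif read on the other strand. The start is that of the window. For Ldha and Aldoa the stretches lie at other starts than that of the transcript measured here, whose own window held no ACGTG.
Slc2a1, chr4:118781304-118781328 (plus strand), 36 bases before the start: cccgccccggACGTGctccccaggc
Hk2, chr6:82724486-82724510 (minus strand), 52 bases before the start: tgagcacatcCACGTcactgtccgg
Hk2, chr6:82724660-82724684 (minus strand), 226 bases before the start: ccacggaacaCACGTcccaactctg
Aldoa, chr7:133942880-133942904 (minus strand), 126 bases before the start: tggctcgagtCACGTcctagcgggg
Pgk1, chrX:103382298-103382322 (plus strand), 131 bases before the start: atggaagtagCACGTctcactagtc
Pgk1, chrX:103382279-103382303 (plus strand), 150 bases before the start: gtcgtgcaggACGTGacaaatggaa
Ldha, chr7:54101130-54101154 (plus strand), 34 bases before the start: tgggttcccgCACGTccgctgggct
Ldha, chr7:54101117-54101141 (plus strand), 47 bases before the start: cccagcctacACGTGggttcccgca
Ldha, chr7:54101020-54101044 (plus strand), 144 bases before the start: gtcgcagcacACGTGgagccactct

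ACGTG was searched on both strands and stood in windows of 6 of the 9 genes (7 of the 13 windows), and 19.6% of all 32851 mouse windows of this length held it. Overlapping windows of Aldoa, which share 1 ACGTG site, are each counted here and below. In Hk1 it stood only in a window of another start than that of the transcript measured. No match there had 10 bases on each side before the start, so none is shown. Pfkl, Pfkp and Ldhb held none in these windows. The E-box CACGTG, which contains ACGTG, was found in 1 gene, Ldha (1 of the 13 windows, against 7.15% of all windows), and not at the start of the transcript measured. AGGTCA, a motif of nuclear receptors, was found in Ldhb and Aldoa (3 of the 13 windows, against 16.3% of all windows). CCAAT was found in 6 of the 9 genes (7 of the 13 windows, against 37.4% of all windows). These are matches of letters and show no binding.

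Depth went from 3.10 to 5.29 Gb of mapped bases per sample. Of 15030 genes 2.16% lay at least 2-fold apart in the day 0 pair, none of them among the 10. Between WT A and WT B this was 22.8% of 15837 genes, Ldhb and Pfkl among them, so the value of each WT sample is given wherever a member's transduced values are listed. Kdm3a, the mouse gene of Jmjd1a, had an FPKM from 13.0 to 28.5 in the transduced and from 15.1 to 23.2 in the untransduced samples, and the files do not tell the human cDNA's reads apart, so its level does not check the knockdown. The summed FPKM of 8 adipocyte markers was 269.9 and 271.6 at day 0 and between 11012 and 34977 in the other 9 samples, although leptin (Lep) stayed under 0.5 throughout. Summed thermogenic markers (6 genes, Dio2 always under 0.5) reached 229.7 at day 8 with ROS and 50.1 without it. Cox8b made up 116.9 and 40.3 of these 2 sums. Summed preadipocyte markers (6 genes) were 553.7 and 622.0 at day 0, 248.3 at day 4 without ROS and 191.5 with it, and 570.8 at day 8 without ROS and 139.5 with it. Most of these sums was Ly6a (494.9 of the 570.8). At day 8 without ROS Pdgfrb was at 16.1 (70.3 and 73.2 at day 0) and Cd34 at 19.8 (32.3 and 36.9), whereas Pdgfra was at 35.2 (11.9 and 11.8). Proliferation markers (6 genes) summed to 545.7 and 582.0 at day 0, to between 357.4 and 441.2 at days 4 and 8, and to between 202.2 and 247.6 in the transduced cells. Of 5 macrophage markers found 4 were always under 0.5, of 4 endothelial markers 2, of 5 muscle markers 3 and of 5 epithelial markers 3, with sums up to 21.7, 4.00, 31.6 and 62.5. In such bulk RNA, fewer cells of a type and less RNA per cell cannot be told apart.

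Averaged over the 11 samples, Aldoa was the most abundant of the 10 transcripts with a mean FPKM of 1885, before Pgk1 (1137) and Ldha (735.2). Pfkl followed at 114.7. The other 6 had means between 25.1 and 64.6. Each gene's range over the samples overlapped that of its neighbour in this order, except that every Ldha value (344.7 or more) lay above every Pfkl value (202.9 or less). As a ratio of highest to lowest value Slc2a4 spanned the widest range, from 0.0454 to 94.4.

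**Figure D1:**
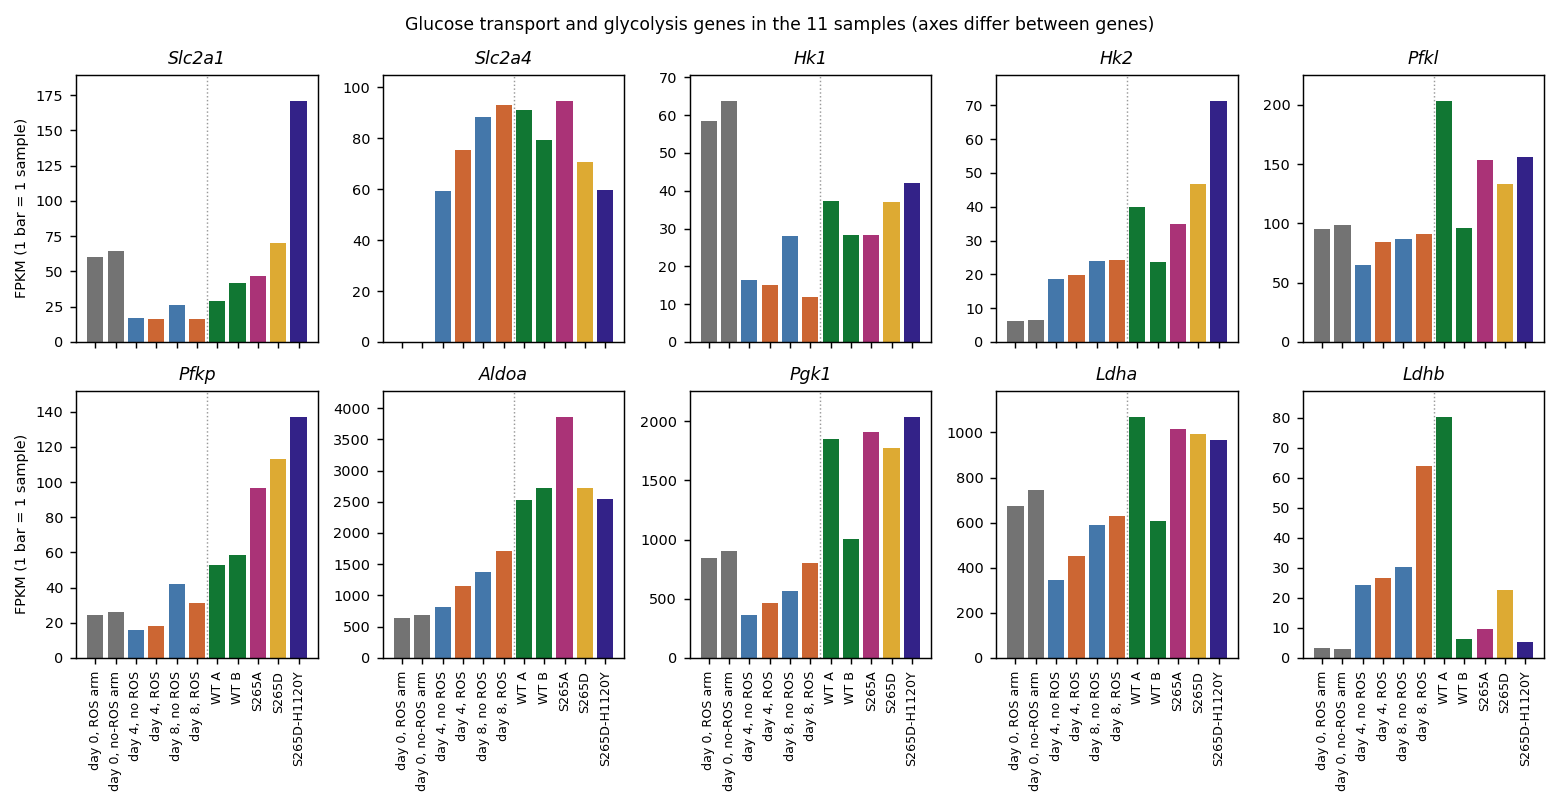
FPKM of the 10 genes in each of the 11 samples, 1 bar per sample on linear axes that differ between genes, with untransduced samples left and transduced samples right of the dotted line. Slc2a4 was near 0 in both day 0 samples and between 59.3 and 94.4 in the other 9, while Slc2a1 was highest in S265D-H1120Y at 170.7.

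The first comparison asked how the pathway differed between preadipocytes and differentiating cells. The genes moved in both directions. Slc2a4, Hk2 and Ldhb rose from day 0 to day 4, whereas Slc2a1, Hk1, Pgk1 and Ldha fell. In limma on log2(FPKM + 0.1), with 2 samples a day (the ROS and no-ROS arms), 3 of the 10 genes were higher at an adjusted p of 0.05 and 4 were lower. Of all 16400 genes tested, 19.8% were called higher and 16.7% lower at day 4, so a call in itself was common. ROS differences count as spread in this test.

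The transporters exchanged places. Slc2a1 (uc008ule.2, chr4:118781350-118809934) had an FPKM of 60.4 and 64.4 at day 0, 17.0 without and 16.5 with ROS at day 4, and 26.0 without and 16.2 with ROS at day 8. Both day 0 values lay above all 4 later ones. The log2 difference at day 4 was -1.89 ± 0.25 (SE), with an adjusted p of 0.00575, and at day 8 it was -1.60 ± 0.25, with an adjusted p of 0.00757. Leaving out either day 0 sample took both calls past the threshold (adjusted p of 0.0546 and 0.0622 at day 4, 0.0611 and 0.0624 at day 8), as did leaving out the ROS sample for day 4 (0.0501).

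Slc2a4 (uc007jsz.1, chr11:69755788-69761692) had an FPKM of 0.0454 and 0.121 at day 0, 59.3 without and 75.4 with ROS at day 4, and 88.2 without and 92.8 with ROS at day 8. Its transcript was close to absent in preadipocytes and plentiful in every differentiated sample, in both arms. The log2 difference was 8.55 ± 0.25 at day 4 (adjusted p = 0.000132) and 8.98 ± 0.25 at day 8 (adjusted p = 0.000114), and the pseudocount of 0.1 understates it because the day 0 level is lower than 0.1 on average. With a pseudocount of 1 the difference at day 4 was 5.97. As a share of the summed FPKM of both transporters, Slc2a4 made up 0.0750% and 0.188% at day 0 and between 77.2% and 85.2% at days 4 and 8.

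The hexokinases moved in opposite directions as well, although Hk1 was again the more abundant form at day 8 without ROS. Hk1 (uc007fgz.2, chr10:61731603-61842656), the broadly expressed form, had an FPKM of 58.6 and 63.6 at day 0, 16.5 without and 15.0 with ROS at day 4, and 28.0 without and 11.8 with ROS at day 8. Every later value was lower than both day 0 values, by a log2 difference of -1.95 ± 0.41 at day 4 (adjusted p = 0.0199) and of -1.74 ± 0.41 at day 8 (adjusted p = 0.0221). Leaving out any 1 of the 4 samples of days 0 and 4 took both calls of Hk1 past the threshold, with adjusted p from 0.0864 to 0.124 at day 4 and from 0.0511 to 0.117 at day 8.

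Hk2 (uc009cll.2, chr6:82675021-82724448), the insulin-responsive form of muscle and fat, had an FPKM of 6.21 and 6.59 at day 0, 18.8 without and 19.9 with ROS at day 4, and 23.9 without and 24.4 with ROS at day 8. The 2 arms were nearly level at both days, and all 4 values lay above day 0. Hk2 rose by a log2 difference of 1.58 ± 0.14 at day 4 (adjusted p = 0.00179) and 1.90 ± 0.14 at day 8 (adjusted p = 0.000974). Its share of the 2 hexokinases went from 9.38% and 9.59% at day 0 to between 46.0% and 67.3% at days 4 and 8.

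**Figure D2:**
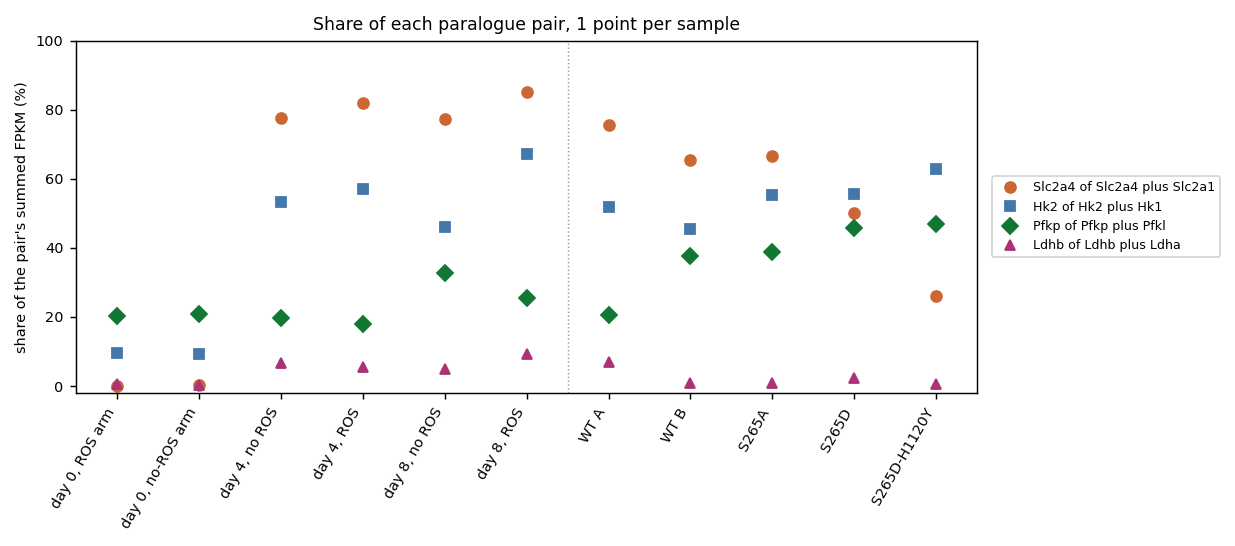
Share (%) of each paralogue pair's summed FPKM taken by Slc2a4, Hk2, Pfkp and Ldhb, 1 point per sample, with untransduced samples left of the dotted line. The Slc2a4 share was under 1% at day 0, between 77.2% and 85.2% in untransduced cells at days 4 and 8, and 25.9% in S265D-H1120Y.

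The lactate dehydrogenases also parted. Ldhb (uc009epj.1, chr6:142438769-142456463), the heart-type subunit, had an FPKM of 3.29 and 2.99 at day 0, 24.1 without and 26.7 with ROS at day 4, and 30.2 without and 64.0 with ROS at day 8. Its day 8 value with ROS was the highest of the 6. The log2 difference from day 0 was 2.98 ± 0.37 at day 4 (adjusted p = 0.00471) and 3.77 ± 0.37 at day 8 (adjusted p = 0.00207), although with all 11 samples in 1 fit, where the WT pair adds to the spread, these adjusted p were 0.247 and 0.152. Without either day 0 sample the adjusted p at day 4 was 0.0506 or 0.0558.

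Ldha (uc009gzo.2, chr7:54102452-54110997), the muscle-type subunit, had an FPKM of 675.6 and 747.0 at day 0, 344.7 without and 451.2 with ROS at day 4, and 591.0 without and 630.5 with ROS at day 8. It fell at day 4 (log2 difference -0.85 ± 0.19, adjusted p = 0.0226), and at day 8 both values lay between those of day 4 and day 0, with a difference from day 0 of -0.22 ± 0.19 that did not pass (adjusted p = 0.368). Despite the rise of Ldhb, Ldha stayed by far the more abundant subunit, and Ldhb took at most 9.22% of their sum.

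Pgk1 (uc009ubo.1, chrX:103382463-103399038) had an FPKM of 845.8 and 900.4 at day 0, 359.4 without and 466.5 with ROS at day 4, and 566.3 without and 798.9 with ROS at day 8. The dip at day 4 was the lowest point in both arms. The log2 difference from day 0 was -1.09 ± 0.24 at day 4 (adjusted p = 0.0215) and -0.38 ± 0.24 at day 8 (adjusted p = 0.237). Leaving out any 1 of the 4 samples of days 0 and 4 took Pgk1 (adjusted p from 0.0683 to 0.128) and Ldha (from 0.0552 to 0.134) past the threshold at day 4.

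Aldoa (uc009jsv.2, chr7:133938748-133943961) had an FPKM of 646.3 and 680.3 at day 0, 812.5 without and 1157 with ROS at day 4, and 1373 without and 1711 with ROS at day 8. Its level was higher at each later day and, within a day, higher in the ROS arm. Aldoa rose from day 0 to day 8 (1.21 ± 0.23, adjusted p = 0.0123), while the day 4 difference of 0.55 ± 0.23 did not pass (adjusted p = 0.118). Without either day 0 sample the day 8 call was lost, with an adjusted p of 0.0868 or 0.0743. The symbol also covers a transcript model on chromosome 12 with a mean FPKM of 2.68. Near-identical processed copies of Aldoa, Pgk1 and Ldha exist in the mouse genome, and the sources used here do not say how reads were shared with them, which leaves these 3 levels uncertain to that extent.

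The phosphofructokinases did not pass the test at either day. Pfkl (uc007fwo.2, chr10:77449694-77472541), the liver-type subunit, stayed between 64.5 and 98.9 in the 6 samples, with differences from day 0 of -0.40 ± 0.18 at day 4 (adjusted p = 0.139) and -0.13 ± 0.18 at day 8 (adjusted p = 0.576). Pfkp (uc007pjz.1, chr13:6579120-6647970), the platelet-type subunit, had an FPKM of 24.3 and 26.2 at day 0, 15.9 without and 18.3 with ROS at day 4, and 41.9 without and 31.1 with ROS at day 8. Day 4 was thus the low point of Pfkp and day 8 the high point in both arms. The differences from day 0 were -0.56 ± 0.20 (adjusted p = 0.0823) and 0.52 ± 0.20 (adjusted p = 0.0878). Pfkp passed at day 4 without the day 8 sample of either arm (adjusted p of 0.0281 without the ROS sample, 0.0276 without the other), and at day 8 without the ROS sample (0.0285).

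Day 8 shares its day 0 samples with the comparison at day 4. Of the 10 genes 4 were called higher (Slc2a4, Hk2, Aldoa and Ldhb) and 2 lower (Slc2a1 and Hk1) at day 8, beside 23.6% and 22.0% of the 16400 genes. From day 4 to day 8, averaged over both arms, all 10 genes had a positive difference, from 0.21 for Hk1 to 1.08 ± 0.20 for Pfkp, against a median of -0.01 over all genes. None of the 10 passed (adjusted p from 0.118 to 0.790, and 4 had an unadjusted p under 0.05), and 0.11% of all genes did. Without the day 8 sample of the no-ROS arm Ldhb passed (adjusted p = 0.0434), and the differences of Hk1 and Slc2a1 turned to -0.40 and -0.05. Within the ROS arm both were lower at day 8 than at day 4.

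**Figure D3:**
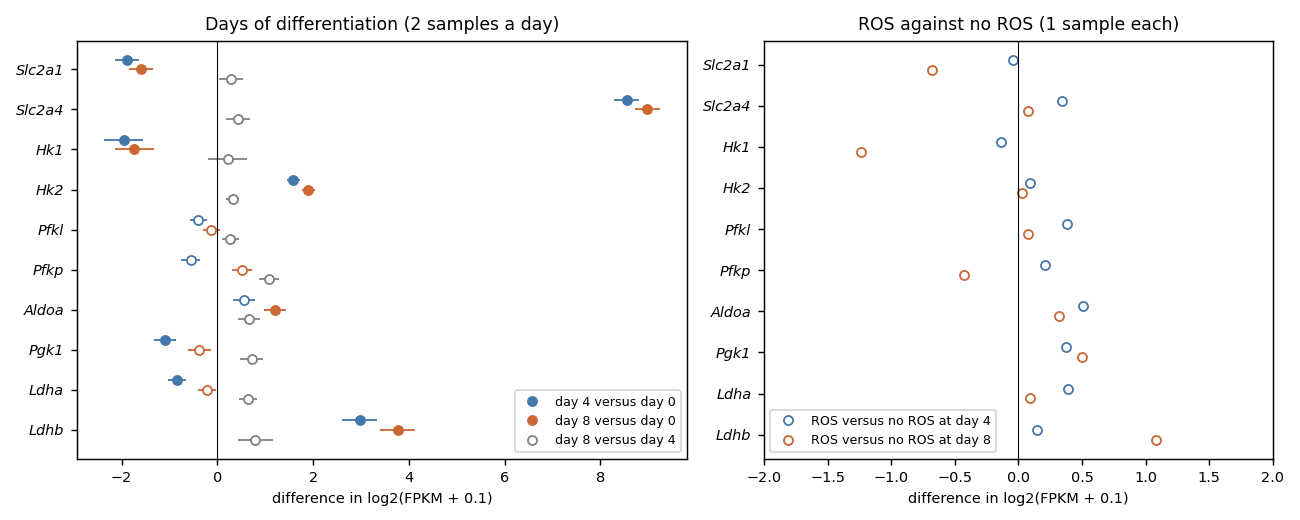
Differences in log2(FPKM + 0.1) of the 10 genes between days (left, points with bars of ± 1 SE from limma, filled where the adjusted p was under 0.05) and between ROS and no ROS (right, 1 sample each, none past the threshold). Slc2a4 stands out at 8.55 and 8.98, and the open grey points of day 8 versus day 4 all lie to the right of 0.

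The rest of the pathway was read from lists of 57 genes, of which 43 were tested. Over all genes 19.8% were called higher and 16.7% lower at day 4, and 23.6% and 22.0% at day 8. Among 13 other glycolytic enzymes 8 were called lower at day 4 and 1 higher, with a median log2 difference of -1.04 against 0.01 over all genes. Gapdh, the enzyme before Pgk1, fell by 0.97 on the log2 scale, with an SE of 0.19 (adjusted p = 0.0163). Pkm2, pyruvate kinase, had -1.65 ± 0.23 (adjusted p = 0.00686) and Eno1, enolase, had -1.96 ± 0.18 (adjusted p = 0.00199). Tpi1, triose phosphate isomerase, fell by 1.11 (adjusted p = 0.0115) and Pgam1, phosphoglycerate mutase, by 1.04 (adjusted p = 0.0127). At day 8 these counts were 6 lower and 1 higher with a median of -0.66, and Gapdh (-0.41, adjusted p = 0.133) and Tpi1 (-0.47, adjusted p = 0.0966) no longer passed.

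Some enzymes of the upper pathway gave no call. Gpi1, glucose phosphate isomerase, had a difference of -0.61 at day 4 (adjusted p = 0.136) and Pfkm, the muscle-type phosphofructokinase, had 0.08 (adjusted p = 0.742).

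Regulators around the pathway were called higher more often than lower, in short lists. The shares over all genes were 19.8% higher and 16.7% lower at day 4, and 23.6% and 22.0% at day 8. Of the 5 enzymes tested that make or remove fructose 2,6-bisphosphate, an activator of phosphofructokinase, 3 were called higher and 1 lower at day 4 (the same counts at day 8). Pfkfb3, which mainly makes this activator, went from 2.26 and 2.32 at day 0 to 72.5 without and 70.8 with ROS (log2 difference 4.91 ± 0.15, adjusted p = 0.000132). Of 12 transcription and trafficking regulators 7 were called higher and none lower at day 4 (median 1.13), and 6 and 1 at day 8. Mlxipl, which encodes the glucose-sensing factor ChREBP, had an FPKM of at most 0.0134 at day 0 and of 6.19 to 15.3 at days 4 and 8 (log2 difference at day 4 of 5.99 ± 0.18, adjusted p = 0.000132). Tusc5, a factor in GLUT4 trafficking, had an FPKM of 0.112 and 0.0725 at day 0, 10.1 without and 23.4 with ROS at day 4, and 13.8 without and 73.3 with ROS at day 8 (log2 difference at day 4 of 6.34 ± 0.85, adjusted p = 0.00585). Hif1a, a hypoxia-inducible factor subunit controlled mostly at the protein level, had a difference of -0.71 at day 4 (adjusted p = 0.124) and fell by 1.62 at day 8 (adjusted p = 0.0120).

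Among 7 carriers of lactate and pyruvate 4 were called higher and 1 lower at day 4, with a median of 1.46. The same shares over all genes (19.8% and 16.7% at day 4, 23.6% and 22.0% at day 8) apply to the counts here. Slc16a3, the lactate exporter MCT4, went from 12.1 and 13.4 at day 0 to 0.926 without and 0.880 with ROS at day 4 (log2 difference -3.68 ± 0.45, adjusted p = 0.00466). Slc16a1, the carrier MCT1, rose from 19.2 and 20.02 to 51.7 and 56.5 (1.46 ± 0.38, adjusted p = 0.0353). At day 8 the counts were 4 higher and 2 lower, and Brp44l, a subunit of the mitochondrial pyruvate carrier, had the largest difference, 3.57 ± 0.29 (adjusted p = 0.00127). Of 6 other glucose transporters tested 3 were called higher and 1 lower at day 4, and 3 and 2 at day 8, and the 9 listed summed to an FPKM of at most 18.3 in any sample. Slc2a8, an intracellular transporter, had the largest change among those with a mean FPKM of at least 1, from 4.93 and 5.35 to 11.03 and 12.5 (adjusted p = 0.00578).

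**Figure D4:**
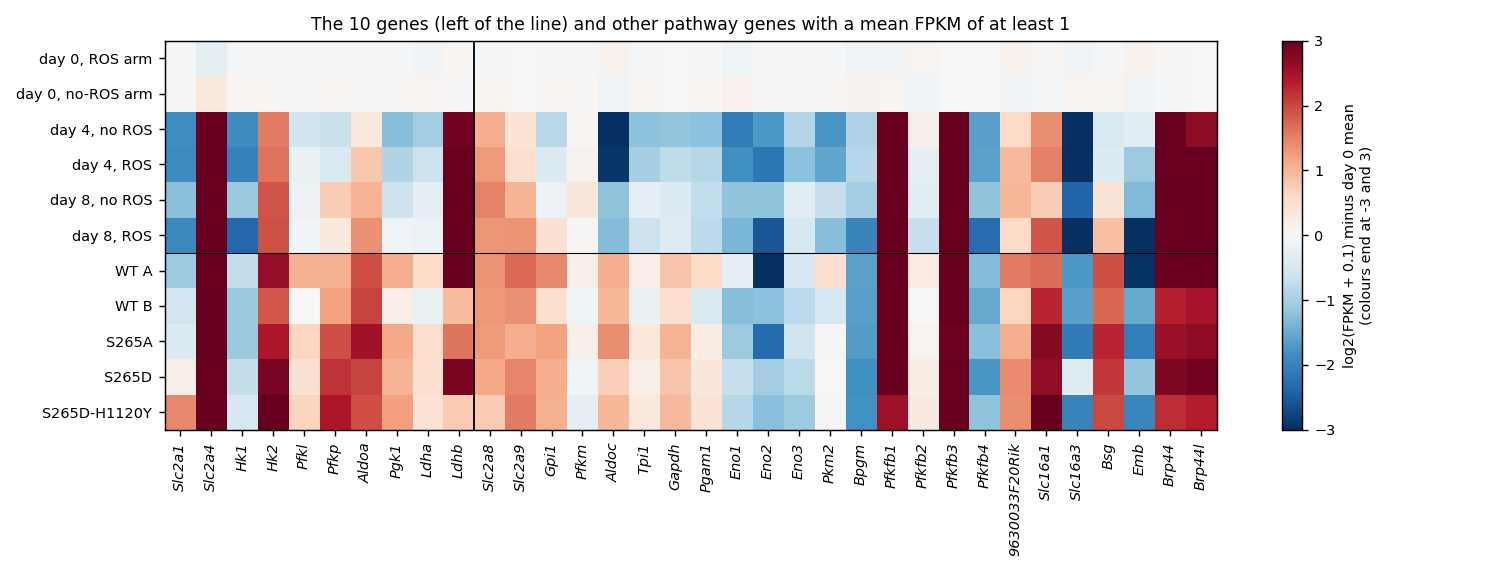
Heat map of log2(FPKM + 0.1) minus the day 0 mean for 34 genes (columns), with the 10 genes left of the line and 24 other enzymes, transporters and carriers of a mean FPKM of at least 1 right of it, in the 11 samples (rows). Red is above and blue below day 0, and Slc2a4, Pfkfb1 and Pfkfb3 are red in all 9 differentiated samples while Slc16a3 is blue.

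The next comparison set cells differentiated with ROS against cells without it. At day 8 the data put Hk1 and Slc2a1 lower and Ldhb higher with ROS, but each condition had 1 sample and no gene passed a test. Hk1 had an FPKM of 11.8 with ROS and 28.0 without it, a log2 difference of -1.23. Slc2a1 had 16.2 and 26.0 (-0.68), and Ldhb had 64.0 and 30.2 (1.08). At day 4 the differences were -0.14 for Hk1, -0.04 for Slc2a1 (0.02 after rescaling by the median ratio) and 0.15 for Ldhb. By a 2-fold limit 1 of the 10 genes was lower at day 8 and 1 higher, beside 10.9% lower and 2.9% higher over 16400 genes. At day 4 none was past 2-fold (1.88% of all genes lower, 1.1% higher).

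At day 8 the remaining genes differed less. With ROS, Pgk1 was 1.41 times and Aldoa 1.25 times its level without ROS at day 8, and 1.30 and 1.42 times at day 4. Pfkp was 0.741 times at day 8 and 1.15 times at day 4. Slc2a4, Hk2, Pfkl and Ldha had ratios from 1.02 to 1.07 at day 8, and of 1.27, 1.06, 1.31 and 1.31 at day 4. In limma, with the spread of the day 0 pair (1 residual degree of freedom), 0 of all 16400 genes were called at either day or in the difference between the days, although 5011 had an unadjusted p under 0.05 at day 8 and 1862 at day 4. The smallest adjusted p among the 10 was 0.0988 at day 8 for Hk1, 0.423 at day 4 and 0.264 for the difference between days. Averaged over both days, none of the 10 was called (smallest adjusted p = 0.242). Over all genes the median difference at day 8 was -0.20, and after rescaling by the median ratio Hk1 was at -1.03, Slc2a1 at -0.48 and Ldhb at 1.29. With a minimum FPKM of 1 the adjusted p of Hk1 was 0.0495. The preadipocyte and thermogenic marker sums given above also differed between these 2 cultures. So did the adipocyte sum, at 34977 with ROS and 11012 without it, mostly Fabp4 (31402 and 7631). Adipoq, Plin1, Cebpa and Lipe were higher with ROS as well, whereas Pparg (139.6 and 231.4) and Cfd (1182 and 1887) were lower. The part of these markers in the differences was not tested.

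Among the 43 other pathway genes none was called for ROS. At day 8, 16 were higher and 27 lower, with a median of -0.17 against -0.20 over all genes. Of the 13 glycolytic enzymes 11 were lower (median -0.30), while 5 of the 7 carriers were higher (median 0.49). Slc16a1 stood at 72.6 with and 33.1 without ROS.

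Transduced adipocytes were compared to ask how the state of JMJD1A at S265 and its catalytic site relates to these genes. Slc2a1 and Pfkp stood highest in S265D-H1120Y and lowest in the 2 WT samples, while Ldhb differed more between the WT samples than among the 3 mutants. None of 16402 genes passed limma in these comparisons (smallest adjusted p = 1, 1 residual degree of freedom, with 107 genes at an unadjusted p under 0.05 for S265A against WT, 99 for S265D against WT and 187 for S265D-H1120Y against S265D).

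Slc2a1 had an FPKM of 29.2 (WT A), 41.8 (WT B), 47.1 in S265A, 70.0 in S265D and 170.7 in S265D-H1120Y. All 3 mutants exceeded both WT samples, and the double mutant was 5.84 times WT A and 4.08 times WT B. The log2 difference of S265D-H1120Y from S265D was 1.28 ± 0.54, beside a spread that comes from the WT pair alone. Slc2a4 ran the other way, with 91.0 (WT A), 79.0 (WT B), 94.4 in S265A, 70.4 in S265D and 59.8 in S265D-H1120Y. S265D and the double mutant were under both WT samples and S265A above them. Together these values put the Slc2a4 share of the 2 transporters at 75.7% (WT A), 65.4% (WT B), 66.7% in S265A, 50.2% in S265D and 25.9% in S265D-H1120Y. Among the adipocyte markers Adipoq, Plin1, Cebpa, Pparg and Lipe were each lowest in S265D-H1120Y as well, with Cebpa at 150.0 (WT A), 83.3 (WT B), 118.2 in S265A, 86.4 in S265D and 43.2 in S265D-H1120Y. Cfd was instead lowest in WT B (388.6, against 413.9 in S265D-H1120Y). Fabp4 was lowest in WT A (12393, against 14128 in S265D-H1120Y), and Lep was near 0 in all. The sum over all 8 is mostly Fabp4. It went from 14853 in WT A to 28547 in WT B and was 15314 in S265D-H1120Y. Their part in the transporter shares was not tested.

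Pfkp had 53.0 (WT A), 58.5 (WT B), 96.7 in S265A, 112.9 in S265D and 136.8 in S265D-H1120Y. Its WT samples agreed within 1.10-fold and every mutant lay above both, the S265A sample by 0.80 ± 0.39 and the S265D sample by 1.02 ± 0.39 on the log2 scale. Hk2 had 40.1, 23.6, 35.0, 46.7 and 71.2 in the same order. S265A fell between the WT samples, and S265D and S265D-H1120Y were above them.

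Ldhb had 80.2 in WT A but 6.17 in WT B, a ratio of 13.0, with 9.69 in S265A, 22.8 in S265D and 5.43 in S265D-H1120Y. Against WT A the S265A sample was at 0.121 times, and against WT B at 1.57 times, so the direction depended on the WT sample. The thermogenic marker sum was 202.4 for WT A against 25.6 for WT B, and the preadipocyte sum 146.5 against 569.4. Their part in the Ldhb values was not tested. For S265A, S265D and S265D-H1120Y the thermogenic sums were 44.5, 159.7 and 84.6. Most of the 84.6 was Cox8b (57.8) and Elovl3 (22.0). Ucp1 and Cidea were instead lowest in S265D-H1120Y, at 0.0528 and 2.35. They stood at 0.972 and 7.29 in S265A and at 0.724 and 7.03 in WT B. Cox8b, Elovl3 and Ppara were higher in S265D-H1120Y than in S265A and WT B.

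The 5 other genes showed no common order. Pfkl had 202.9 (WT A), 96.4 (WT B), 153.0 in S265A, 133.3 in S265D and 155.6 in S265D-H1120Y, all mutants between the WT samples. Pgk1 (1848, 1006, 1906, 1772 and 2033) and Ldha (1067, 607.5, 1016, 991.3 and 965.2) were lowest in WT B. Hk1 stayed between 28.2 and 42.1. Aldoa was highest in S265A at 3852, where the WT samples had 2522 and 2715, and S265D (2718) and S265D-H1120Y (2546) were near WT.

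Counted by a 2-fold limit on the fitted difference, none of the 10 genes was higher in S265A than in WT and Ldhb, which was higher than in WT B alone, was lower against the mean of the pair (2.63% of all 16402 genes higher, 2.52% lower). For S265D against WT Pfkp was higher and none lower (3.4% higher, 1.59% lower). For S265D-H1120Y against S265D Slc2a1 was higher and Ldhb lower (3.71% higher, 6.04% lower). In 8 of the 10 genes the S265A difference was smaller than its SE, as in 7 of 10 for S265D and 9 of 10 for the double mutant. Against WT A and WT B taken singly, S265A lay above both for Slc2a1, Slc2a4, Pfkp, Aldoa and Pgk1, and below both for Hk1, where 24.5% of all genes lay above and 22.3% below. S265D lay above both for Slc2a1, Hk2, Pfkp and Aldoa (23.5% of all genes) and below both for Slc2a4 (20.6%). S265D-H1120Y lay above both for Slc2a1, Hk1, Hk2, Pfkp and Pgk1 (27.0% of all genes) and below both for Slc2a4 and Ldhb (31.3%).

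**Figure D5:**
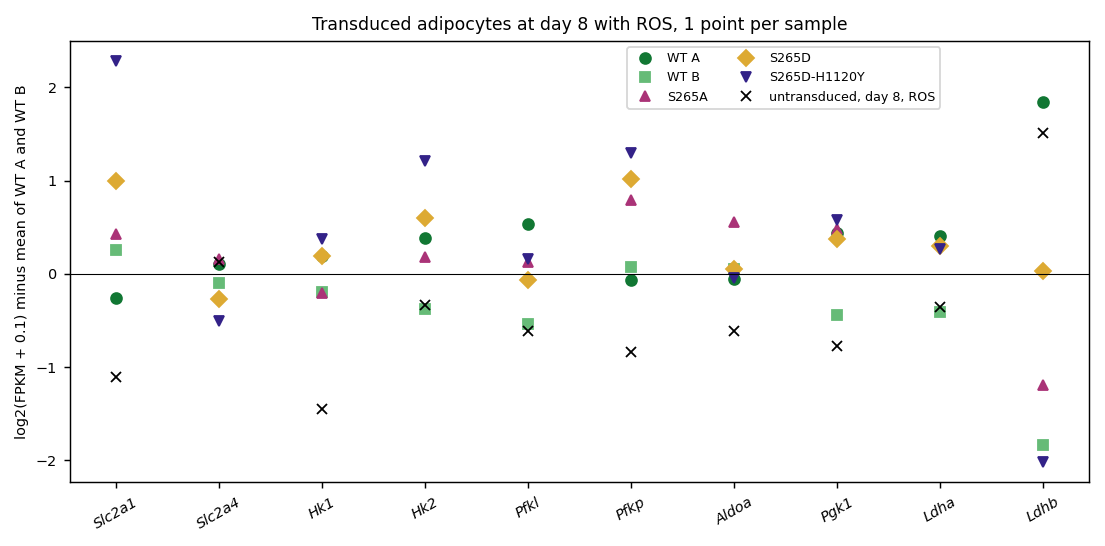
Differences of log2(FPKM + 0.1) from the mean of both WT samples for the 10 genes, 1 point per day 8 sample of the ROS arm, with the untransduced culture as crosses. The 2 WT points are farthest apart for Ldhb, the S265D-H1120Y points are highest for Slc2a1, Hk1, Hk2, Pfkp and Pgk1, and the untransduced cross is lowest for 6 genes.

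The other pathway lists gave no call among the transduced cells either. Of 42 genes tested 20 were higher and 22 lower in S265A than in WT, and 26 higher and 16 lower in S265D than in WT. In S265D-H1120Y against S265D 11 of 12 regulators had a lower value, with a median of -0.52 against -0.05 over all genes, and 3 of them were past 2-fold. Mlxipl had 11.3 in S265D and 1.44 in S265D-H1120Y, while the WT samples had 23.2 (WT A) and 4.47 (WT B). Slc16a3 had 9.83 and 3.12, while the WT samples had 3.78 and 4.03. Of 7 carriers 6 were lower, and of 12 other glycolytic enzymes 7 were lower, with a median of -0.03.

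Against the single untransduced culture at day 8 with ROS, the 5 transduced samples had a higher mean log2 value for 8 of the 10 transcripts, and so they had for 55.0% of all genes. The transduction, the knockdown, the selection and any difference between experiments cannot be told apart here. The 5 transduced samples, which carry different constructs, were taken as 1 group, so the SE holds the differences between constructs. No gene of the 10 was called (adjusted p from 0.0953 to 0.688), and 0.0424% of 16494 genes were. Hk1 was at 11.8 in the untransduced culture and between 28.2 and 42.1 in all 5 transduced ones (log2 difference 1.52 ± 0.30, adjusted p = 0.0953). Pfkp (31.1 against 53.0 to 136.8) and Slc2a1 (16.2 against 29.2 to 170.7) had differences of 1.46 ± 0.55 and 1.85 ± 0.86. Pgk1 was at 798.9 against 1006 to 2033 (1.06 ± 0.41). All 5 transduced values lay above the untransduced one for these 4 genes and for Aldoa and Pfkl, 6 of the 10, beside 28.6% of all genes. For none of the 10 did all 5 lie below it (22.8% of all genes). The first 4 genes were past 2-fold upward, where 11.8% of all genes were, and Ldhb alone downward (-2.15 ± 1.39), where 4.88% were. The Slc2a4 level of 92.8 lay inside the transduced range of 59.8 to 94.4. Of the 43 other pathway genes 12 were more than 2-fold higher and 5 more than 2-fold lower in the transduced samples, with no call.

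Genes with the most similar profile over the 11 samples were looked up among 12415 others with a mean FPKM of at least 1, as a description. The points share the cell line and, for 5 of them, the knockdown vector. For Slc2a4 these were Plin (Pearson r = 0.996), Gpd1 (0.996) and Plin1 (0.996), of which Plin and Plin1 are models of the lipid droplet protein perilipin and Gpd1 is glycerol-3-phosphate dehydrogenase. Slc2a4 and Plin1 were near 0 at day 0 and high in every later sample, so their r rests largely on that step. Ldhb was nearest to the mitochondrial genes Uqcrc1 (0.979) and Gpd2 (0.978) and to Nudt19 (0.978). Ldha was nearest to Fam162a (0.964), to Pgk1 (0.964) and to Pgam1 (0.948). For Slc2a1 they were Slc41a2 (0.984), N4bp1 (0.950) and Soat1 (0.943), for Hk2 Kdm6b (0.978), 3110043O21Rik (0.977) and Odz4 (0.970), and for Pfkp Aig1 (0.980), Stbd1 (0.974) and Pvr (0.965).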

How the data were processed

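RNA-seq was analysed in 11 im-scWAT samples, grouped by the sample labels. Reads of TruSeq libraries had been mapped by the authors to the mm9 genome and UCSC transcript models (Burrows-Wheeler aligner, then local realignment). The authors deposited FPKM per transcript and strand (55419 transcripts), with the log10 and the log2 of the FPKM beside it. The coverage signal, also deposited, is in mapped bases, not reads, so no count test was used. Depth was worked out from the mapped bases.

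Sense rows with the authors' representative flag stood for each symbol. A gene was tested when its FPKM was at least 0.1 in any sample of the fit, on log2(FPKM + 0.1), which understates changes of low genes. Differences were tested with limma 3.58.1 in R 4.3.3 (two-sided, Benjamini-Hochberg adjustment over all genes, threshold 0.05). Fits had 3 residual degrees of freedom for days, 2 for ROS over both days, 1 for ROS at 1 day and among transduced groups, and 4 for transduced against untransduced cells. Where a group had 1 sample, the spread came from the day 0 pair or the WT pair, except for transduced against untransduced cells. There it came from all transduced samples taken as 1 group, although their constructs differ. The script was checked on simulated data. Tables and figures used Python 3.11.15, numpy 2.4.6, pandas 2.3.3 and matplotlib 3.10.9.

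The 10 genes and all lists were chosen with earlier results of these data known. Named in addition were the gene with the largest difference in each pathway list at a mean FPKM of at least 1, and Gapdh, Pkm2, Tpi1, Eno1, Pgam1, Gpi1, Pfkm, Pfkfb3, Slc16a1, Slc16a3, Hif1a and Mlxipl; for transduced cells only some of these are printed. An item that this rule names is not reported here. Pfkfb1 in the heat map caption was named after its values were seen. Alternatives changed the pseudocount (1), the minimum FPKM (1 or none), the transcript per symbol, the scaling, the eBayes trend, the samples in the fit, single samples left out and, for days, the arm as a block (added after seeing the data). Promoter sequences are from RefSeq (GRCm38.p6 table).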

Additional observations from a re-analysis of the deposited data

Results flagged for a closer look

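The antisense strand of Pfkp, which no comparison of the report uses, gave an FPKM of 0.982 at day 4 without ROS, above the 0.305 and 0.498 of the day 0 pair. It made up 5.82% of the FPKM of both strands there, 4.37% at day 4 with ROS, and between 0.552% and 2.58% in the other 9 samples. The other 9 genes were at most 0.402% antisense in every sample, except Slc2a4 in 1 day 0 sample (25.1% of a summed FPKM near 0).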

How the results depend on the processing

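The labels give the groups no shared replicate numbers, but each day has 1 sample per arm. With the arm as a replicate block, an alternative chosen after seeing the data, 7, 0 and 6 of the 10 genes were called for day 4 against 0, day 8 against 4 and day 8 against 0, and every member's call stayed as it was without the block. Of 1220 alternative values for the 10 genes 1163 kept their direction and, where tested, their side of the threshold, 16 uncalled differences changed sign, 35 calls were lost, 6 were gained and no called difference reversed. From day 0 to day 4, 7 of the 10 genes were called, against 4 with no filter on low values, 3 with all 11 samples in 1 fit, and 2 to 8 when samples were left out (2 without either day 0 sample). At day 8 the number was 6 against day 0, and 3 to 7 with samples left out (3 without either day 0 sample). Between days 4 and 8 it was 0, and 0 to 1 with samples left out, with Ldhb called (adjusted p = 0.0434) without the day 8 sample of the no-ROS arm. For ROS at day 8 it was 0, and 1 (Hk1) with a minimum FPKM of 1. Slc2a4 kept its calls against day 0 in all 14 alternatives at both days, and Hk2 in 13 of 14 at day 4 and 14 of 14 at day 8.

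Over all genes, the number called at day 4 was 5976, against 3021 with no filter, 1454 with all 11 samples in 1 fit and 1407 to 8347 with samples left out. At day 8 against day 0 it was 7473, against 4208, 2556 and 2147 to 9150. Between days 4 and 8 it was 18, against 131 with a pseudocount of 1, 33 with no filter, 45 with a minimum FPKM of 1, 10 with the row of highest mean, 37 rescaled, 73 with a trend, 0 with all 11 samples or with the arm as a block, and 0 to 595 with samples left out. With no filter the ROS comparisons, with 0 calls otherwise, gave 1434 at day 4, 2042 at day 8, 41 over both days and 2129 for the difference between days, and a minimum FPKM of 1 gave 895 at day 8. For transduced against untransduced cells it was 7, against 1 with a pseudocount of 1, 328 with no filter, 4 with a minimum FPKM of 1, 0 with the row of highest mean, a trend or all 11 samples, and 0 to 321 with samples left out (321 without WT A). The cause of these shifts was not tested. The sign changes include Slc2a1 for ROS at day 4 (-0.04, or 0.02 after rescaling) and Pfkp for ROS over both days (-0.11, or 0.02 after rescaling). Fits among single mutants could not be tested without 1 WT sample, since no residual degree of freedom is left. Depth limits only the lowest values: 100 mapped bases on 2 kb of exon give an FPKM between 0.00944 and 0.0161, and the Slc2a4 values at day 0 were 0.0454 and 0.121.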
